A study of Mus musculus with 9 samples.

Results

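The late cornified envelope (Lce) and small proline-rich (Sprr) genes were examined in immortalized mouse embryonic fibroblasts (MEFs) of an ICR background after knockdown of RPA1 or HSF1. The group was chosen by name: every gene whose symbol starts with Lce or Sprr and a digit and that had a probe set of its own on the array. This gave 32 of the 19938 genes tested, 19 Lce genes (13 of the Lce1, 5 of the Lce3 and 1 of the Lce6 class) and 13 Sprr genes (2 of the Sprr1 and 9 of the Sprr2 class, Sprr3 and Sprr4). The choice was made with the rise of Lce1h known, so the values of Lce1h are given as a description with no test.

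There were 9 Affymetrix Mouse Gene 1.0 ST arrays, 3 from cells given an shRNA against RPA1, 3 from cells given an shRNA against HSF1 and 3 from cells given a scrambled shRNA. All 3 groups, the scrambled control included, were infected for 2 h with an adenovirus carrying the shRNA (1e8 pfu/ml) and grown for a further 70 h at 37 °C in medium with 10% serum. RPA1 is the largest protein of replication protein A (RPA), which coats single-stranded DNA, and HSF1 is the main heat shock transcription factor. The labels do not say that the 3 arrays of a group came from separate cultures, so the p-values measure only the spread between these samples, and they name no clone and no second shRNA for either target.

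The cornified envelope is the cross-linked protein shell that replaces the plasma membrane of keratinocytes in the outermost epidermis. Sprr and Lce proteins are precursors of this shell and are joined to loricrin, involucrin and each other by transglutaminases. Their genes lie side by side in the epidermal differentiation complex, and fibroblasts are not known as a main site of their expression.

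The targeted gene was checked first. Rpa1 (probe set 10388409) read 9.42, 9.34 and 9.40 with RPA1 shRNA, 11.35, 11.33 and 11.30 with HSF1 shRNA and 11.40, 11.42 and 11.41 with scrambled shRNA, in log2 RMA signal, the unit of every level below. The level of Hsf1 was not analysed here. Array medians over all rows ranged between 7.72 and 7.81. Over the genes tested the median was 8.46 for HSF1 array 1 and 8.35 to 8.38 for the other arrays. Arrays of a group correlated at a mean r of 0.994 to 0.998 over all genes. RPA1 array 3 stood apart: over the 408 genes that differed at least 2-fold from the control mean on both other RPA1 arrays, its difference was a median of 0.685 times theirs, against 1.07 and 1.04 for RPA1 arrays 1 and 2 in the same measure. Differences from scrambled shRNA under RPA1 shRNA are therefore also given without it for the members named in full and for the called list genes named below. As a mark of background served the 95th percentile, 7.02, of the scrambled means of 1190 olfactory and vomeronasal receptor genes. Where a group of a gene lies below it, only the log2 difference is given and no fold. Of 9 fibroblast markers, 8 lay above the mark in scrambled arrays, and Lum did not (5.37 ± 0.20, SD, n = 3).

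Under RPA1 shRNA Lce1e, Lce1f, Lce1g, Lce1i, Lce1j, Lce3f, Sprr1a and Sprr2j-ps rose, Sprr2g fell and Lce1h was higher. Of these, Lce1f, Lce3f and Sprr2j-ps were below the background mark in every group. With limma across all genes (Benjamini-Hochberg adjusted p under 0.05), 10 of the 32 members were called, 9 higher and 1 lower. Over all genes 30.1% were called, 15.4% higher and 14.7% lower, so the share of members called in either direction (31.2%) was near that of all genes, while 28.1% of the members were called higher and 3.12% lower. Without Lce1h, 8 of the other 31 were higher (25.8%). The median difference from scrambled shRNA was 0.11 over the members (0.26 over the Lce and 0.09 over the Sprr genes) and 0.02 over all genes. Leaving out RPA1 array 3, 11 members were called, 10 higher and 1 lower, with a median of 0.12. The share of all genes called in that fit is not given here. In these bulk samples more cells that express a gene and more RNA per cell cannot be told apart.

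Under HSF1 shRNA Lce1f, Lce1g, Sprr1a and Sprr2j-ps rose, Sprr2g fell and Lce1h was higher. Of these, Lce1f, Lce1g and Sprr2j-ps were below the background mark with both HSF1 and scrambled shRNA. Called were 6 of 32 (18.8%), 5 higher (15.6%) and 1 lower (3.12%), where 16.1% of all genes were called, 9.89% higher and 6.21% lower. Without Lce1h, 5 of 31 were called (16.1%). The median difference was 0.07 over the members and 0.04 over all genes. After scaling over the genes tested, the members' median was 0.02 (quantile), 0.04 (median) and 0.03 (cyclic loess). The members' median per array had a pooled within-group SD of 0.0723. Both comparisons used the same 3 scrambled arrays, so a member high in both is not shown to respond independently to each shRNA.

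Lce1h (probe set 10499932), which encodes a late envelope precursor of the Lce1 class, read 10.63, 10.79 and 11.13 with RPA1 shRNA, 9.76, 9.70 and 9.83 with HSF1 shRNA and 8.70, 8.82 and 8.85 with scrambled shRNA. The 3 groups did not overlap, with the RPA1 arrays highest and the scrambled arrays lowest. The means were 10.85 ± 0.25, 9.76 ± 0.07 and 8.79 ± 0.08 (SD, n = 3 each). The RPA1 arrays were 4.16-fold above the scrambled arrays (log2 2.06 ± 0.11, SE), and the HSF1 arrays 1.96-fold (0.97 ± 0.11). RPA1 over HSF1 shRNA came to 2.12-fold (1.09 ± 0.11). Without RPA1 array 3, the highest of its group here, the log2 difference of RPA1 from scrambled shRNA was 1.92.

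Lce1g (10499930), the neighbour of Lce1h on one side, rose with both shRNAs. It read 7.46, 7.78 and 7.91 with RPA1 shRNA, 6.18, 6.15 and 6.39 with HSF1 shRNA and 5.75, 5.73 and 5.69 with scrambled shRNA. Again no array of one group overlapped another group. The HSF1 and scrambled arrays were below the background mark. The log2 difference was 1.99 ± 0.11 with RPA1 shRNA (limma adjusted p = 4e-06, and 1.90 without RPA1 array 3). With HSF1 shRNA it was 0.52 ± 0.11 (limma adjusted p = 0.01, and 0.051 without variance moderation).

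Lce1i (10499935), the neighbour on the other side, read 7.77, 7.72 and 8.04 with RPA1 shRNA, 6.74, 6.88 and 7.03 with HSF1 shRNA and 6.53, 6.66 and 6.69 with scrambled shRNA. Its scrambled arrays were below the background mark. It rose with RPA1 shRNA by 1.22 ± 0.10 in log2 (limma adjusted p = 2.9e-05, and 1.12 without RPA1 array 3). All HSF1 arrays lay above the scrambled arrays by a narrow margin, and that difference of 0.26 ± 0.10 was not called (limma adjusted p = 0.11); without RPA1 array 3 in the fit it was (0.26, adjusted p = 0.038).

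Lce1j (10499937), the next gene along, read 9.60, 9.50 and 9.56 with RPA1 shRNA, 9.06, 8.93 and 9.07 with HSF1 shRNA and 8.85, 8.91 and 8.89 with scrambled shRNA. The rise was 1.59-fold with RPA1 shRNA (0.67 ± 0.05, limma adjusted p = 2.9e-05) and the same 0.67 without RPA1 array 3. The HSF1 arrays were only just above the scrambled arrays, by 0.14 ± 0.05 (limma adjusted p = 0.13).

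Lce1f (10499927), on the other side of Lce1g, was below the background mark on every array. It read 6.50, 6.50 and 6.59 with RPA1 shRNA, 6.48, 6.62 and 6.38 with HSF1 shRNA and 6.10, 6.20 and 6.16 with scrambled shRNA. The RPA1 and HSF1 arrays of Lce1f overlapped each other, and all 6 lay above the scrambled arrays. The gene rose by 0.38 ± 0.07 in log2 with RPA1 shRNA (limma adjusted p = 0.0023, and 0.34 without RPA1 array 3) and by 0.34 ± 0.07 with HSF1 shRNA (0.0085).

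Lce1e (10499924) read 7.47, 7.60 and 7.84 with RPA1 shRNA, 7.44, 7.48 and 7.44 with HSF1 shRNA and 7.39, 7.26 and 7.29 with scrambled shRNA. RPA1 array 3 was the highest of the 9. Lce1e rose 1.25-fold with RPA1 shRNA (0.32 ± 0.09, limma adjusted p = 0.018), and the HSF1 difference was 0.14 ± 0.09 (0.33). The RPA1 call was lost in 4 of 19 alternative settings, among them leaving out scrambled array 2 (0.29, adjusted p = 0.069) or scrambled array 3 (0.31, 0.06). The difference lay between 0.19 and 0.41 over these settings and was 0.22 without RPA1 array 3 (0.019).

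**Figure D1:**
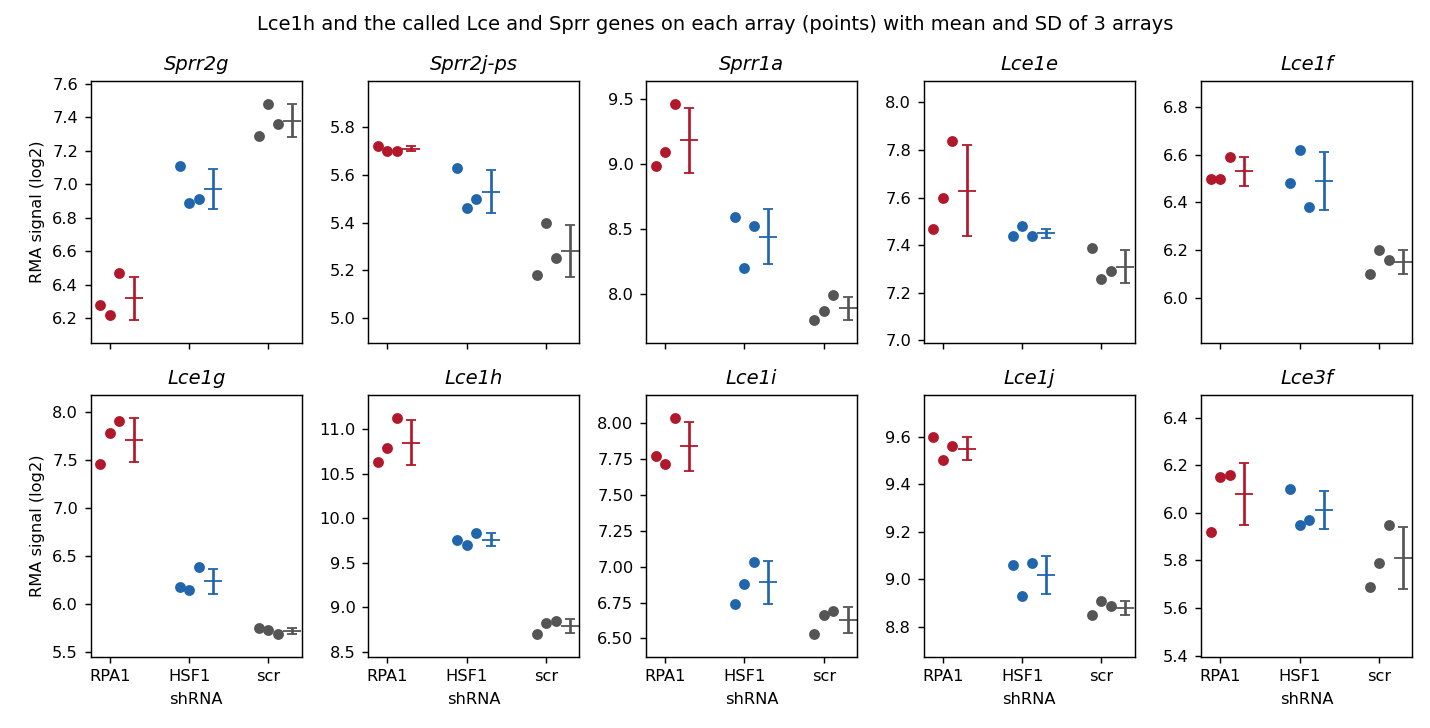
Each panel is 1 gene, with the log2 RMA signal on the y axis (a scale of its own in each panel) and the groups RPA1, HSF1 and scrambled (scr) shRNA on the x axis; points are arrays 1 to 3 and the bar beside them is the mean ± SD of 3 arrays. The RPA1 arrays lie above the scrambled arrays for every gene shown except Sprr2g, where they lie below, and Lce3f, where 1 RPA1 array overlaps them.

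In the RefSeq gene table (GRCm38.p6) the 32 members lie on chromosome 3 in a block of 52 genes that runs from Sprr2a1 to Lce1m, neither of which was tested, and 36 of these 52 genes were tested. Lce1e, Lce1f, Lce1g, Lce1h, Lce1i and Lce1j follow each other in the order of the tested genes. The genes flanking the run were not called: Lce1d differed by -0.05 ± 0.08 (limma adjusted p = 0.73) and Lce1k by 0.05 ± 0.07 (0.66) with RPA1 shRNA. Of the 13 Lce1 genes, 6 were higher with RPA1 shRNA and 0 were lower, against 15.4% and 14.7% of all genes. The 6 include Lce1h, whose rise was known when the group was chosen. Members of these classes are near-identical copies in part, and whether RNA of one gene bound to the probes of another was not tested.

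**Figure D2:**
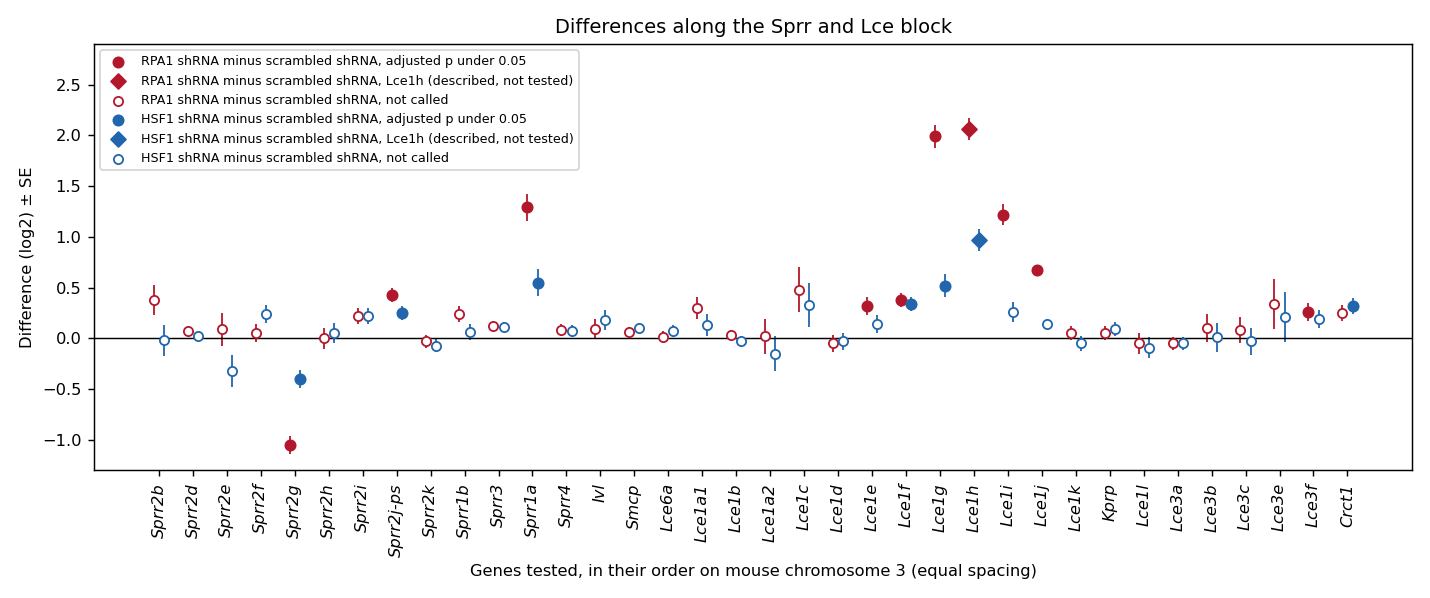
The log2 difference from scrambled shRNA (y axis, ± SE) of the 36 genes tested in the block, in their order along chromosome 3 at equal spacing (x axis), for RPA1 shRNA and HSF1 shRNA; filled circles passed limma's adjusted p of 0.05, open circles did not, and diamonds are Lce1h, described without a test. The RPA1 points climb to 1.99 at Lce1g and 2.06 at Lce1h and are back at 0.05 at Lce1k.

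Promoter sequences were compared for this run, since all its genes were higher with RPA1 shRNA, by 0.32 (Lce1e) to 2.06 (Lce1h) in log2. With HSF1 shRNA Lce1e, Lce1i and Lce1j were not called. RefSeq windows (GRCm38.p6, 250 bases before to 50 after the start of the gene) matched 29 of the 32 members by symbol and gene ID, all except Lce1f, Sprr2g and Sprr2j-ps. The windows of 5 genes of the run and of both flanking genes are shown 5′ to 3′, all on the minus strand. They are Lce1d at chr3:92687161-92687460, Lce1e at chr3:92709025-92709324, Lce1g at chr3:92752289-92752588, Lce1h at chr3:92765016-92765315, Lce1i at chr3:92778850-92779149, Lce1j at chr3:92790465-92790764 and Lce1k at chr3:92807842-92808141. Capitals mark AATAAAAGG in the run, TATAAA in Lce1d and the longest stretch shared by Lce1g, Lce1h, Lce1i and Lce1j.
Lce1d: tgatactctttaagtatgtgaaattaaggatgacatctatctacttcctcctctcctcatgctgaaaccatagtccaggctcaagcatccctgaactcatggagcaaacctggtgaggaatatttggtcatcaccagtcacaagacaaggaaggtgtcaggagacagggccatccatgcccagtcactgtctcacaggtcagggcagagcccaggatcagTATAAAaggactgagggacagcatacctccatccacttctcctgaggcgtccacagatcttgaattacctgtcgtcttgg
Lce1e: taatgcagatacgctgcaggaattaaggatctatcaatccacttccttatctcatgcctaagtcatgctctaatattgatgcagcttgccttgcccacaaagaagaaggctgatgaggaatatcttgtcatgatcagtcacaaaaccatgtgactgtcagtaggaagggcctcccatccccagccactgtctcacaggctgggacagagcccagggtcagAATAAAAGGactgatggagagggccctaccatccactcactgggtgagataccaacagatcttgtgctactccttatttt
Lce1g: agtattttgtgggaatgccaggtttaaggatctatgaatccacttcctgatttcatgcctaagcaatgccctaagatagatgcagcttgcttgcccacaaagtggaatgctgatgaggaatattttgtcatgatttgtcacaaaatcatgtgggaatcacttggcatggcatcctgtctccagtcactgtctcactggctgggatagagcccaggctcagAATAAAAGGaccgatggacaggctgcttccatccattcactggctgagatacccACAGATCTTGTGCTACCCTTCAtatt
Lce1h: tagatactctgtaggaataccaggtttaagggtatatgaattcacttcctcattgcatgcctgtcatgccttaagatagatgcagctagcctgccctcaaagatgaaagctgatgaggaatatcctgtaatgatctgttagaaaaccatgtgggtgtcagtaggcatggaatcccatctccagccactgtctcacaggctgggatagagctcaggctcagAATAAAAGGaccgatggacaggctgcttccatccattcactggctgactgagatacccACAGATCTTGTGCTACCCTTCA
Lce1i: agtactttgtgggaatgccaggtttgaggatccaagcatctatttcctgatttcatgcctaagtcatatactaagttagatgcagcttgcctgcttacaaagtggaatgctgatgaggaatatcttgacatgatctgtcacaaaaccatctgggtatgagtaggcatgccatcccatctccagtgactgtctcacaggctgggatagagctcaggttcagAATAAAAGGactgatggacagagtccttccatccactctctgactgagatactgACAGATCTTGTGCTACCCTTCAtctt
Lce1j: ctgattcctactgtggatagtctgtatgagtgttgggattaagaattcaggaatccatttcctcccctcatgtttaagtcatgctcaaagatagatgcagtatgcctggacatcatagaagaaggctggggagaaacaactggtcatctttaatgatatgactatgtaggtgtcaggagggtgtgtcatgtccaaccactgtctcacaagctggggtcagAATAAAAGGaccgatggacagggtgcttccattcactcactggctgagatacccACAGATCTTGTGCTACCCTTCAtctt
Lce1k: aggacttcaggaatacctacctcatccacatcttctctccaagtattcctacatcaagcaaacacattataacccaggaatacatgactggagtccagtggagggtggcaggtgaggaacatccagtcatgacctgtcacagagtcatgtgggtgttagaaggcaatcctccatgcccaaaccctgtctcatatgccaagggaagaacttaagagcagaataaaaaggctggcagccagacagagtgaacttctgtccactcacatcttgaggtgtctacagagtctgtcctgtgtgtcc

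All 5 printed windows of the run held AATAAAAGG with its first base at -30 from the start, while Lce1d held TATAAA at -30 and Lce1k held neither of these strings. Both flanking windows held close variants, however, TATAAAAGG in Lce1d and AATAAAAAGG in Lce1k. The uncalled Lce1b held AATAAAAAGG as well, so the exact string draws no sharp line between the run and other Lce1 genes. The uncalled genes Lce1a2 (RPA1 shRNA 0.02 ± 0.17, limma adjusted p = 0.94) and Lce1c also held AATAAAAGG at -30. AATAAAAGG, searched on both strands and picked after the sequences were seen, occurred in 8 of the 29 member windows (27.6%) and in 0.508% of all 32851 windows. The shared stretch of 22 bases, ACAGATCTTGTGCTACCCTTCA, began at +29 in Lce1h and at +25 in Lce1g, Lce1i and Lce1j. It was picked after the values were seen, occurred in 5 member windows (17.2%) and in 0.0152% of all windows, and was also in the window of Lce1c. Lce1c was not called (RPA1 shRNA 0.48 ± 0.22, limma adjusted p = 0.13, and HSF1 shRNA 0.33 ± 0.22, 0.36).

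The windows most like that of Lce1h by global alignment were those of Lce1g (84.6% identical), Lce1i (81.0%) and Lce1e (78.9%). Lce1c followed with 72.4% and Lce1j with 68.6%. Next came the uncalled Lce1a2 (67.0%), Lce1a1 (66.9%) and Lce1b (66.5%). The flanking genes had 66.3% (Lce1d) and 58.9% (Lce1k), and the windows of the Sprr genes at most 54.3%. These are descriptions of sequence, and binding of any factor was not measured. The heat shock motif GAANNTTC, searched on both strands, was in 0 of the 29 member windows and in 7.86% of all windows.

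Sprr1a (10499899), a cross-linked envelope precursor that is also known from injured peripheral neurons in rodents, was the Sprr gene with the largest rise. It read 8.98, 9.09 and 9.46 with RPA1 shRNA, 8.59, 8.20 and 8.52 with HSF1 shRNA and 7.80, 7.87 and 7.99 with scrambled shRNA. The groups did not overlap. Sprr1a rose 2.44-fold with RPA1 shRNA (log2 1.29 ± 0.13, limma adjusted p = 0.00011, and 1.15 without RPA1 array 3). It rose 1.46-fold with HSF1 shRNA (0.55 ± 0.13, adjusted p = 0.021). That call was lost without variance moderation (0.55, adjusted p = 0.085) and on leaving out scrambled array 1 (0.51, adjusted p = 0.08) or 2 (0.54, 0.069), or HSF1 array 1 (0.47, 0.078) or 3 (0.51, 0.078).

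Its paralog Sprr1b (10499891) was just outside the threshold. It read 6.97, 7.11 and 7.25 with RPA1 shRNA, 6.92, 6.90 and 6.99 with HSF1 shRNA and 7.01, 6.83 and 6.79 with scrambled shRNA. One RPA1 array lay within the scrambled arrays, and the difference was 0.24 ± 0.08 (limma adjusted p = 0.052).

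The Sprr1a window (chr3:92485832-92486131, minus strand, GRCm38.p6) is shown because it holds 2 copies of the AP-1 motif TGANTCA, the binding sequence of Fos and Jun family dimers, which are in capitals together with TATAAA.
Sprr1a: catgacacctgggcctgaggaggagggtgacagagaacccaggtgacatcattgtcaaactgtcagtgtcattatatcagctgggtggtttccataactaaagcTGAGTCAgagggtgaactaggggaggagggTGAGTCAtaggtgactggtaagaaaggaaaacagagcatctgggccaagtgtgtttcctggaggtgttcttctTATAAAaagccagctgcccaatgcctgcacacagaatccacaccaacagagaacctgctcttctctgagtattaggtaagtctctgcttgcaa

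The AP-1 matches began at -146 and -116 and the TATAAA at -43. Searched on both strands, TGANTCA occurred in 9 member windows (31.0%), all of Sprr genes (Sprr1a, Sprr1b, Sprr2b, Sprr2d, Sprr2e, Sprr2f, Sprr2h, Sprr2i and Sprr2k), and in 7.81% of all windows. Of these 9 genes Sprr1a was called and the other 8 were not, and the printed windows of the Lce1 run held none of these matches. The uncalled Sprr2k also held 2 copies, at -196 and -182. It differed by -0.03 ± 0.06 with RPA1 shRNA (limma adjusted p = 0.75). The string TATAAA was in 13 member windows (44.8%) and 13.6% of all windows.

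Sprr2g (10493873) was the one member that fell. The gene table lists it as a transcribed pseudogene, so no role of a protein is given. It read 6.28, 6.22 and 6.47 with RPA1 shRNA, 7.11, 6.89 and 6.91 with HSF1 shRNA and 7.29, 7.48 and 7.36 with scrambled shRNA. The RPA1 arrays were lowest and the scrambled arrays highest, with no overlap. Sprr2g fell by 1.05 ± 0.09 on the log2 scale with RPA1 shRNA (limma adjusted p = 3.1e-05, and by 1.13 without RPA1 array 3). With HSF1 shRNA it fell by 0.40 ± 0.09 (adjusted p = 0.012), a call lost at adjusted p = 0.051 on leaving out scrambled array 2, HSF1 array 2 or HSF1 array 3.

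Sprr2j-ps (10493882), likewise listed as a transcribed pseudogene, went the opposite way and was below the background mark on every array. It read 5.72, 5.70 and 5.70 with RPA1 shRNA, 5.63, 5.46 and 5.50 with HSF1 shRNA and 5.18, 5.40 and 5.25 with scrambled shRNA. All arrays of both knockdowns lay above the scrambled arrays. The rise was 0.43 ± 0.07 in log2 with RPA1 shRNA (limma adjusted p = 0.0011, and 0.43 without RPA1 array 3) and 0.25 ± 0.07 with HSF1 shRNA (0.032). The HSF1 call was lost without moderation (adjusted p = 0.071) and without scrambled array 1 (0.20, adjusted p = 0.12), scrambled array 3 (0.24, 0.11), HSF1 array 1 (0.20, 0.1) or HSF1 array 3 (0.27, 0.071).

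The Lce3 class is known in human skin for its induction after barrier damage. Of its 5 members tested here 1 was called, higher with RPA1 shRNA, where 15.4% of all genes were called higher. Lce3f (10493907) read 5.92, 6.15 and 6.16 with RPA1 shRNA, 6.10, 5.95 and 5.97 with HSF1 shRNA and 5.69, 5.79 and 5.95 with scrambled shRNA. Every array of Lce3f lay below the background mark, and the RPA1 and scrambled arrays overlapped. The RPA1 difference was 0.26 ± 0.09 in log2 (limma adjusted p = 0.043), just inside the threshold. It was not called in 11 of 19 alternative settings, among them leaving out scrambled array 1 (0.20, adjusted p = 0.15) or 2 (0.25, 0.11), HSF1 array 2 (0.26, 0.06) or 3 (0.26, 0.061), or RPA1 array 2 (0.23, 0.13) or 3 (0.22, 0.095). The HSF1 difference was 0.19 ± 0.09 (0.17).

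The other 22 members were called in no comparison. They were Lce1a1, Lce1a2, Lce1b, Lce1c, Lce1d, Lce1k, Lce1l, Lce3a, Lce3b, Lce3c, Lce3e, Lce6a, Sprr1b, Sprr2b, Sprr2d, Sprr2e, Sprr2f, Sprr2h, Sprr2i, Sprr2k, Sprr3 and Sprr4. Their group means lay between 3.72 and 8.60, and none differed between groups by more than 0.48 in log2. Sprr2b (10493860), for example, read 6.09, 5.77 and 5.35 with RPA1 shRNA, 5.23, 5.35 and 5.40 with HSF1 shRNA and 5.35 on each array with scrambled shRNA. The RPA1 arrays of Sprr2b spread more widely than those of any other group of it, and the difference of 0.38 ± 0.15 was not called (limma adjusted p = 0.08).

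A further 4 probe sets were shared by several genes of these families and were not counted as members. One for Sprr2a1, Sprr2a2, Sprr2a3 and Sprr2b differed from scrambled shRNA by 0.0615 with RPA1 shRNA and 0.0595 with HSF1 shRNA in log2. A pair for Sprr2a1 and Sprr2a3 held identical values and differed by 0.141 with RPA1 and 0.0694 with HSF1 shRNA. The one for 6 Lce3 genes, Lce3f among them, differed by 0.0322 with RPA1 shRNA and by -0.0268 with HSF1 shRNA.

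Most members lay below the background mark but above the median of the receptor genes. That median was 5.41, and 30 of the 32 members lay above it with RPA1 shRNA, 29 with HSF1 shRNA and 29 with scrambled shRNA. Above the mark of 7.02 were 10 of the 32 members with RPA1 shRNA (31.2%), 7 with HSF1 shRNA (21.9%) and 8 with scrambled shRNA (25.0%), where 71.3, 71.3 and 70.3% of all genes were. The 8 in scrambled arrays were Lce1e, Lce1h, Lce1j, Lce1k, Lce1l, Sprr1a, Sprr2g and Sprr4. With RPA1 shRNA, Lce1g, Lce1i and Sprr1b lay above the mark as well and Sprr2g did not. The percentile is a mark of background for this array and no detection call, and signals of different probe sets are not ranked here.

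Calls among the receptor genes were few: 2.18% were called with RPA1 shRNA and 1.09% with HSF1 shRNA. Lce6a, Sprr2b, Sprr2f, Sprr2h, Sprr2k and Sprr4 had an identical value on at least 4 of the 9 arrays, as had 13.2% of all genes.

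**Figure D3:**
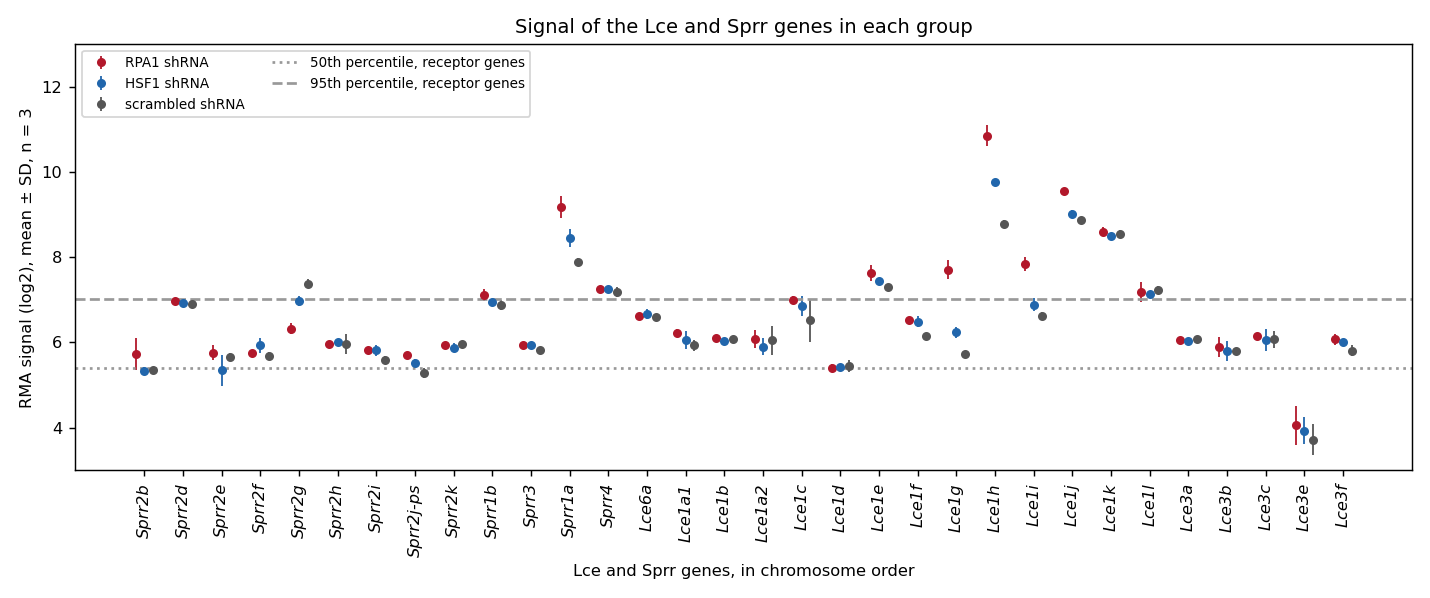
The log2 RMA signal (y axis) of the 32 members in chromosome order (x axis), as the mean ± SD of 3 arrays with RPA1, HSF1 and scrambled shRNA; the dotted and dashed lines are the 50th (5.41) and 95th (7.02) percentile of 1190 receptor genes in scrambled arrays. Groups are to be compared within a gene, and Lce1g and Lce1i are below the dashed line with scrambled shRNA and above it with RPA1 shRNA.

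RPA1 and HSF1 shRNA were also compared directly. Between them 6 members were called (18.8%, against 24.4% of all genes), 5 higher with RPA1 shRNA (15.6%, against 9.71%) and 1 lower (3.12%, against 14.7%). Without Lce1h, 4 of 31 were higher (12.9%). Lce1g was higher by 1.47 ± 0.11 in log2 with RPA1 than with HSF1 shRNA (limma adjusted p = 7.1e-05) and Lce1i by 0.96 ± 0.10 (0.00028). Lce1j was 1.45-fold higher (0.53 ± 0.05, 0.00027) and Sprr1a 1.67-fold (0.74 ± 0.13, 0.0037). Sprr2g was lower with RPA1 shRNA (-0.65 ± 0.09, 0.00088). For Lce1f the difference was 0.04 ± 0.07 (0.77), and for Lce1e it was 0.18 ± 0.09 (0.16). The median difference was 0.10 over the members and -0.02 over all genes. In the fit without RPA1 array 3, whose share of all genes called is not given here, 7 members were called, 6 higher and 1 lower. The differences in it were 1.38 for Lce1g, 0.86 for Lce1i, 0.53 for Lce1j, 0.60 for Sprr1a and -0.72 for Sprr2g.

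The 4 tested genes of the block that are not members were not called under RPA1 shRNA. Ivl, which encodes the envelope precursor involucrin, read 6.48, 6.31 and 6.39 with RPA1 shRNA, 6.39, 6.39 and 6.68 with HSF1 shRNA and 6.39, 6.13 and 6.39 with scrambled shRNA. The groups overlapped, with 0.09 ± 0.10 under RPA1 shRNA (limma adjusted p = 0.56) and 0.18 ± 0.10 under HSF1 shRNA (0.26). Smcp, which encodes a sperm mitochondrial protein, differed by 0.06 ± 0.05 (0.48) and the keratinocyte gene Kprp by 0.05 ± 0.07 (0.64) with RPA1 shRNA. Crct1 differed by 0.25 ± 0.08 with RPA1 shRNA (0.051). It rose by 0.32 ± 0.08 with HSF1 shRNA (limma adjusted p = 0.029), a call lost on leaving out scrambled array 2 or 3 or any 1 of the HSF1 arrays (adjusted p up to 0.11).

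Of 24 tested genes for other envelope proteins and late epidermal proteins (25 listed), 3 rose and 0 fell with RPA1 shRNA and 3 rose and 0 fell with HSF1 shRNA, with medians of 0.07 and 0.09. Over all genes 15.4% rose and 14.7% fell with RPA1 shRNA, and 9.89% rose and 6.21% fell with HSF1 shRNA. The counts of this and the next 3 lists over all 9 arrays stand against these shares. The list had 3 rises and 1 fall with each shRNA without RPA1 array 3. Counts without that array come from another fit, whose share of all genes called is not given here. All groups share 1 estimate of the spread per gene, so HSF1 calls change in that fit too. The keratin gene Krt80 read 9.17, 9.26 and 9.69 with RPA1 shRNA, 9.07, 9.05 and 9.23 with HSF1 shRNA and 8.62, 8.49 and 8.31 with scrambled shRNA. Both knockdowns lay above the scrambled arrays. Krt80 rose by 0.90 ± 0.13 with RPA1 shRNA (limma adjusted p = 0.00076, and 0.74 without RPA1 array 3) and by 0.64 ± 0.13 with HSF1 shRNA (0.01, and 0.054 without variance moderation). Sbsn, which encodes suprabasin of the upper epidermis, rose by 0.52 ± 0.09 with RPA1 shRNA (0.0026, and 0.53 without RPA1 array 3). Krt1 and Krt10, keratins of the suprabasal layers, differed by 0.03 ± 0.07 (0.79) and 0.19 ± 0.07 (0.094) with RPA1 shRNA.

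Among 20 tested genes for cross-linking enzymes, plakins, desmosomes and the lipid envelope (22 listed), 5 rose and 1 fell with RPA1 shRNA and 4 rose and 0 fell with HSF1 shRNA. When RPA1 array 3 was left out there were 6 rises and 2 falls with RPA1 shRNA and 8 rises and 0 falls with HSF1 shRNA. Aloxe3, a lipoxygenase gene of the epidermal lipid barrier, rose by 1.32 ± 0.13 with RPA1 shRNA (limma adjusted p = 8.4e-05), the membrane protease gene St14 by 1.22 ± 0.19 (0.0011) and Casp14, whose protease processes filaggrin, by 0.62 ± 0.07 (0.00012). Without RPA1 array 3 these were 1.47 for Aloxe3, 1.49 for St14 and 0.70 for Casp14. For these 3 genes RPA1 array 3 was the lowest of its group, whereas for Lce1g, Lce1h, Lce1i and Sprr1a it was the highest. With HSF1 shRNA Ppl, which encodes the plakin periplakin, rose by 0.69 ± 0.09 (0.0012) and the ceramide synthase gene Cers3 by 0.44 ± 0.06 (0.001). With scrambled shRNA Casp14 (6.51 ± 0.03) and Cers3 (6.84 ± 0.02) were below the background mark. Tgm1, the transglutaminase gene of keratinocytes, differed by -0.08 ± 0.05 with RPA1 shRNA (0.23).

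The S100 genes, calcium-binding protein genes that share the epidermal differentiation complex, did not move one way with RPA1 shRNA. Of 13 tested (14 listed), 2 rose and 2 fell with RPA1 shRNA and 3 rose and 0 fell with HSF1 shRNA. In the fit without RPA1 array 3 there were 1 rise and 3 falls with RPA1 shRNA and 5 rises and 2 falls with HSF1 shRNA. S100a3 rose by 0.76 ± 0.09 with RPA1 shRNA (limma adjusted p = 0.00022) and by 0.96 ± 0.09 with HSF1 shRNA (0.00023). S100a16 fell by 0.46 ± 0.09 (0.0029) and S100a13 fell by 0.37 ± 0.06 (0.0016) with RPA1 shRNA. These differences were 0.70 for S100a3, -0.50 for S100a16 and -0.35 for S100a13 without RPA1 array 3. S100a4 rose by 1.16 ± 0.18 with HSF1 shRNA (0.0027).

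Of 27 tested transcription factor genes of epidermal differentiation (28 listed), 10 rose and 2 fell with RPA1 shRNA, and 4 rose and 1 fell with HSF1 shRNA. Without RPA1 array 3 there were 12 rises and 4 falls with RPA1 shRNA and 6 rises and 1 fall with HSF1 shRNA. Fosl1, which encodes the AP-1 subunit Fra-1, read 11.48, 11.46 and 11.58 with RPA1 shRNA, 10.80, 10.80 and 10.93 with HSF1 shRNA and 9.61, 9.63 and 9.67 with scrambled shRNA. The 3 groups were ordered as for Lce1h, without overlap. Fosl1 rose by 1.87 ± 0.06 with RPA1 shRNA (limma adjusted p = 3.8e-07, and 1.84 without RPA1 array 3) and by 1.21 ± 0.06 with HSF1 shRNA (1.6e-05). Zfp750 and Grhl3, regulators of late keratinocyte differentiation, rose with RPA1 shRNA by 1.24 ± 0.16 (0.00038) and 1.21 ± 0.19 (0.001), with RPA1 array 3 lowest of its group for both (1.47 for Zfp750 and 1.46 for Grhl3 without it). Maf fell by 0.51 with RPA1 shRNA (0.00026, and by 0.50 without RPA1 array 3) and by 0.64 ± 0.06 with HSF1 shRNA (0.00028), and Klf4 differed by -0.03 ± 0.15 with RPA1 shRNA (0.92). Whether any of these factors acted on the Lce or Sprr genes was not tested.

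**Figure D4:**
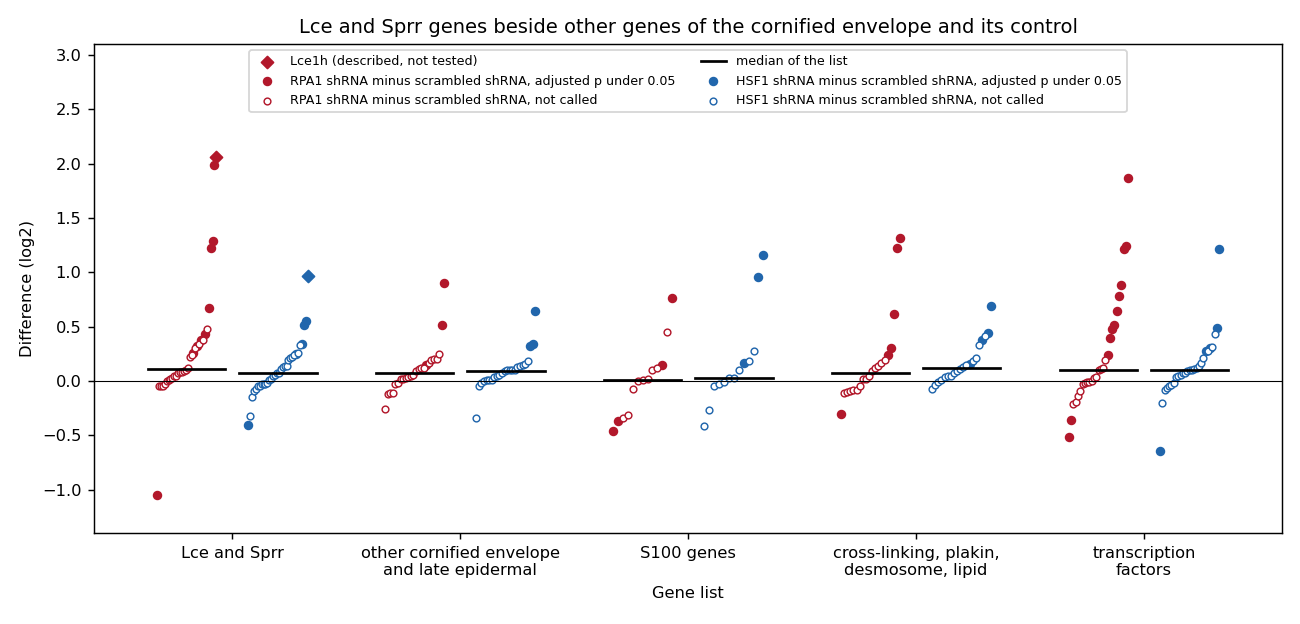
The log2 difference from scrambled shRNA (y axis) of each tested gene in 5 lists (x axis), for RPA1 shRNA (left in each list) and HSF1 shRNA (right); filled circles passed limma's adjusted p of 0.05, open circles did not, diamonds are Lce1h, and the bar is the list's median. The medians with RPA1 shRNA lie between 0.01 and 0.11, and the tops of the Lce and Sprr genes (2.06) and of the transcription factors (1.87) are Lce1h and Fosl1.

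Markers of other cell types were read on the same arrays. Their counts over all 9 arrays stand against the shares of all genes, 15.4% higher and 14.7% lower with RPA1 shRNA. With HSF1 shRNA these shares were 9.89% and 6.21%. For the counts without RPA1 array 3 no such share is given here. Of 12 epithelial and keratinocyte markers 2 rose and 0 fell with RPA1 shRNA and 1 rose and 0 fell with HSF1 shRNA; leaving out RPA1 array 3 made these 3 and 4 higher. Their summed linear signal was 3007 to 3220 in RPA1 arrays, 3149 to 3263 in HSF1 arrays and 2774 to 2878 in scrambled arrays. Krt14, a keratin of basal keratinocytes, rose by 0.61 ± 0.07 with RPA1 shRNA (limma adjusted p = 0.00019) and Itgb4 by 0.57 ± 0.10 (0.0019), or 0.67 and 0.70 without RPA1 array 3. The basal keratin Krt5 (6.89 ± 0.07 with RPA1 shRNA, 6.71 ± 0.15 with HSF1 shRNA and 6.70 ± 0.04 with scrambled shRNA) was below the background mark in every group. Epcam was below it with RPA1 shRNA (6.88 ± 0.14) and scrambled shRNA (6.98 ± 0.01) and above it with HSF1 shRNA (7.15 ± 0.05). Trp63, the master factor of stratified epithelia, differed by 0.03 ± 0.06 with RPA1 shRNA (0.79).

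The 9 fibroblast markers had a summed linear signal of 34252 to 36534 in RPA1 arrays, 41930 to 43154 in HSF1 arrays and 46679 to 47704 in scrambled arrays. With RPA1 shRNA 7 of them fell and 0 rose, and with HSF1 shRNA 4 fell and 0 rose (6 and 1 without RPA1 array 3 in the fit). Of 7 macrophage or other blood markers 3 rose and 0 fell with RPA1 shRNA, and 2 rose and 0 fell with HSF1 shRNA. Without RPA1 array 3 the rises were 4 and 3. Cd68 rose most with RPA1 shRNA, by 2.06 ± 0.17 (limma adjusted p = 2.8e-05, and 2.28 without RPA1 array 3). Csf1r rose by 0.35 ± 0.07 (0.0046, and 0.36). Lyz2, below the background mark in every group, rose by 0.52 ± 0.07 (0.00033, and 0.53). The median over the 7 markers was 0.17. Their summed signal was 1602 to 2247 in RPA1, 1077 to 1086 in HSF1 and 851 to 941 in scrambled arrays. The 6 endothelial markers summed to 775 to 887 in RPA1, 829 to 865 in HSF1 and 766 to 785 in scrambled arrays. The part of these shifts in the Lce and Sprr differences was not tested.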

How the data were processed

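Total RNA of MEFs (200 ng per sample) was hybridised to Affymetrix Mouse Gene 1.0 ST arrays, 9 in all and 3 per shRNA. The deposited values are log2 signals, 1 per probe set and array, made with RMA in Partek 6.5 per the submitters' processing notes. The notes do not state the scale, and log2 was inferred from the range of the values. Of 35557 rows, 21789 had 1 gene symbol in the probe annotation and only these were used. The row with the highest mean stood for each gene, which left 19938 genes, and no member had more than 1 row. No filter on dim genes was used.

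Group means were fitted over the 9 arrays in limma 3.58.1 (R 4.3.3), with 3 contrasts, empirical Bayes moderation (6 residual and 3.51 prior degrees of freedom) and Benjamini-Hochberg adjustment over all genes. With 3 arrays against 3, an exact test reaches 0.1 at best, so calls depend on limma's pooled variance, and the number of arrays limits the precision. Differences are given ± SE and levels ± SD. The steps were tested on simulated data. Promoters were searched and aligned with Python 3.11.15 and Biopython 1.88.

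The members and lists were chosen with earlier results of these data known. Named in full were Lce1h and every member called in at least 1 comparison, of the other lists up to 4 called rises and falls by size, and uncalled genes as examples. Replicate numbers were not used as pairs in the main fit. The correlation of same-numbered deviations from the group means lay between -0.16 and 0.09. Differently numbered arrays were not compared, so these values cannot show whether the arrays were paired. The alternatives were other scalings, row rules, variance models, array weights, a replicate block and leaving out each array. The list genes were put through the same alternatives, a step added after the data were seen.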

Additional observations from a re-analysis of the deposited data

How the results depend on the processing

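Among the 30 differences of the 10 members named in full, over 3 comparisons, no called one changed sign under an alternative. There were 20 alternatives, and 19 for the members that are not above the median gene. The uncalled differences between RPA1 and HSF1 shRNA of Lce1f (0.04) and Lce3f (0.07) changed sign, to -0.02 and -0.01 with array weights, and for Lce1f also to -0.02 without HSF1 array 3. The call was the same throughout for 22, was lost at least once for 6 and was gained at least once for 2. The RPA1 count of 10 called members became 3 among genes above the median gene, where few members are tested, and 15 with array weights. It lay between 8 and 11 on leaving out 1 array. The HSF1 count of 6 became 2 among genes above the median gene, 3 without moderation and 9 with array weights, and lay between 4 and 7 on leaving out 1 array. The count of 6 between RPA1 and HSF1 shRNA became 3 among genes above the median gene and 9 with array weights, and lay between 6 and 7 on leaving out 1 array. The members' median among genes above the median gene was 0.98 with RPA1 shRNA, 0.34 with HSF1 shRNA and 0.63 for RPA1 over HSF1 shRNA. On leaving out 1 array the median lay between 0.11 and 0.18 with RPA1 shRNA, between 0.07 and 0.11 with HSF1 shRNA and between 0.07 and 0.13 for RPA1 over HSF1 shRNA.

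With a replicate block the counts of called members were 10 with RPA1 shRNA, 6 with HSF1 shRNA and 6 between them, of which 9, 5 and 6 were among those called without it. Under the block Lce3f with RPA1 shRNA (adjusted p = 0.055) and Sprr2j-ps with HSF1 shRNA (0.066) lost their calls and Lce1i with HSF1 shRNA gained one (0.038), all by limma.

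Over all genes the number called was 5998 with RPA1 shRNA and 9065 with array weights. It was 3210 with HSF1 shRNA, 5313 with array weights, 2023 without scrambled array 1, 1953 without scrambled array 3 and 2041 without HSF1 array 3. Between RPA1 and HSF1 shRNA it was 4863, 7926 with array weights and 3228 without RPA1 array 1. Over the alternatives the number of rises with RPA1 shRNA was 4 to 13 in the transcription factor list, 1 to 6 in the other envelope list and 1 to 7 in the cross-linking list. No difference of a called list gene reversed in these alternatives.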
